A study of Danio rerio with 24 samples.

Results

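Neurofilaments, axon growth proteins and retinal ganglion cell markers were followed across zebrafish eyes exposed to mebendazole (MBZ) or BBC. The set holds 10 gene names, *neflb*, *nefma*, *nefmb*, *inaa*, *inab*, *gap43*, *plppr5b*, *elavl3*, *isl2b* and *rbpms2b*. A probe belonged to a gene when the RefSeq accession given by the array design was listed for that gene. By this rule 6 of the 10 names had a probe, of 10536 gene names with a probe on the array. For *nefmb*, *inaa*, *gap43* and *isl2b* no probe was matched, and their levels were not analysed here. *neflb* and *plppr5b* were selected on measured values, their fall in MBZ against BBC eyes, so their differences between MBZ and BBC eyes are a description and carry no test.

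Zebrafish of the AB line at 48 hpf (hours after fertilization) were placed in 0.3 μM MBZ or 0.3 μM BBC. Their eyes were taken after 12, 24 or 36 h, at 60, 72 and 84 hpf, and the eyes of many fish were pooled into each sample. Each of the 6 conditions had 4 samples, and each sample was hybridized to an array of 1 colour. MBZ is a benzimidazole carbamate that binds tubulin. BBC carries the same benzimidazole carbamate and benzoyl parts as MBZ, with a butyl ester on the benzoyl ring that MBZ lacks, and it served as the control compound at the same dose and times. Eyes without either compound were not analysed here, so each difference is one between the compounds.

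Retinal ganglion cells are the output neurons of the retina. Their axons leave the eye through the optic nerve, and in the zebrafish these axons reach the tectum within the first days of life. Neurofilaments are the intermediate filaments of neurons: light and medium chains, together with internexin, form the filament core that fills an axon as it matures. RNA-binding proteins of the Rbpms family mark ganglion cells in the vertebrate retina, and Elavl3 (HuC) marks neurons in general soon after they leave the cell cycle.

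Each value is the log2 of a signal over the 75th percentile of its array, so 0 is the level of that percentile and a step of 1 is a doubling. Levels of different probes are not compared with each other. The 75th percentile lay between 437 and 1433 signal units over the 24 arrays and was lowest at 24 h, and 66.5% to 76.7% of the probes were well above background. The number of arrays limits the precision. All 8 probes of the 6 genes were well above background on all 24 arrays, none was saturated, and all 8 passed the filter on dim probes. There were 6 slides, and a slide carried 2 MBZ and 2 BBC arrays of the same exposure. A scan day held all arrays of 1 exposure time and no others, so age and scan day cannot be told apart. MBZ and BBC arrays held fixed positions on the slides, so position and compound cannot be told apart either. Nothing in the labels says that the 4 samples of a condition came from separate exposures, so the p-values measure the spread between these samples.

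*rbpms2b*, which encodes an RNA-binding protein of ganglion cells, was lower in MBZ eyes after 36 h of exposure, by 1.5-fold and 1.57-fold at its 2 probes. It was the 1 gene called lower at 36 h among the 4 genes that were not picked for their fall. The set as a whole was chosen with earlier results of these data known. In all, 2.44% of the probes tested were called lower at 36 h, at an adjusted p under 0.20. After 12 and 24 h, 0 of these 4 genes were called by limma in either direction, as were 0.321% of all probes at each of these times. At these times 1587 and 1458 of the 31507 tested probes had an unadjusted limma p under 0.05. Of the 6 probes of these 4 genes only the dimmer *rbpms2b* probe did, at both times. Its direction was not the same: it was higher in MBZ eyes at 12 h (0.30) and lower at 24 h (-0.28).

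The brighter probe of *rbpms2b* (A_15_P103102) read 3.07, 2.85, 2.96 and 2.69 on the 4 MBZ arrays at 36 h, against 3.45, 3.55, 3.60 and 3.33 on the BBC arrays. All 4 MBZ arrays lay below all 4 BBC arrays. This held for 2.84% of the probes with values on all 8 arrays. The difference was -0.59 on the log2 scale (SE 0.13, 95% interval -0.86 to -0.32), with an adjusted p of 0.0265 from limma. The dimmer probe (A_15_P101016) read 0.27, 0.44, 0.34 and 0.09 on MBZ arrays and 1.0, 0.96, 0.69 and 1.09 on BBC arrays. These groups did not overlap either, and the difference was -0.65 (SE 0.13, limma adjusted p = 0.0152). Within the 2 slides of that time, the differences were -0.54 and -0.64 at the brighter probe and -0.63 and -0.68 at the dimmer one. Both calls held with any of the 24 arrays left out. A rank product over pairs of MBZ and BBC arrays, the type of test in the study's methods, ended both calls. Its FDR was 0.283 and 0.222. In pooled eyes, fewer cells of a type and less RNA per cell cannot be told apart.

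The same probes showed no such gap at the earlier times. At 12 h the brighter probe read 2.81, 2.51, 2.78 and 2.69 on MBZ arrays and 2.84, 2.3, 2.54 and 2.82 on BBC arrays, which overlapped. The difference was 0.07, with a 95% interval of -0.20 to 0.34. At 24 h it read 3.44, 3.81, 3.48 and 3.94 on MBZ arrays and 3.73, 3.95, 4.0 and 3.96 on BBC arrays. Here the difference was -0.24, with an interval of -0.51 to 0.03, and the arrays again overlapped. The dimmer probe differed by 0.30 at 12 h and by -0.28 at 24 h, with overlap at both times (limma adjusted p = 0.973 at 12 h and 0.9999 at 24 h).

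Whether the difference changed between 12 and 36 h was tested as a difference of the 2 effects in the same limma fit. At the dimmer probe the effect at 36 h was lower than that at 12 h by -0.95 (SE 0.19, limma adjusted p = 0.0526), which was called. At the brighter probe it was lower by -0.66 (SE 0.18, limma adjusted p = 0.266), which was not called. Of all probes tested, 0.362% were called in this test. With quantile normalization the brighter probe was called too (-0.72, limma adjusted p = 0.15), as it was with the authors' normalized values (-0.70, adjusted p = 0.106). The planned normexp alternative ended the call at the dimmer probe (-1.0, adjusted p = 0.9999), and it does not pass a threshold of 0.05. The steps 24 against 12 h and 36 against 24 h were not called by limma at either probe, with the lowest adjusted p at 0.909. These steps called 0% and 0.0635% of all probes.

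**Figure D1:**
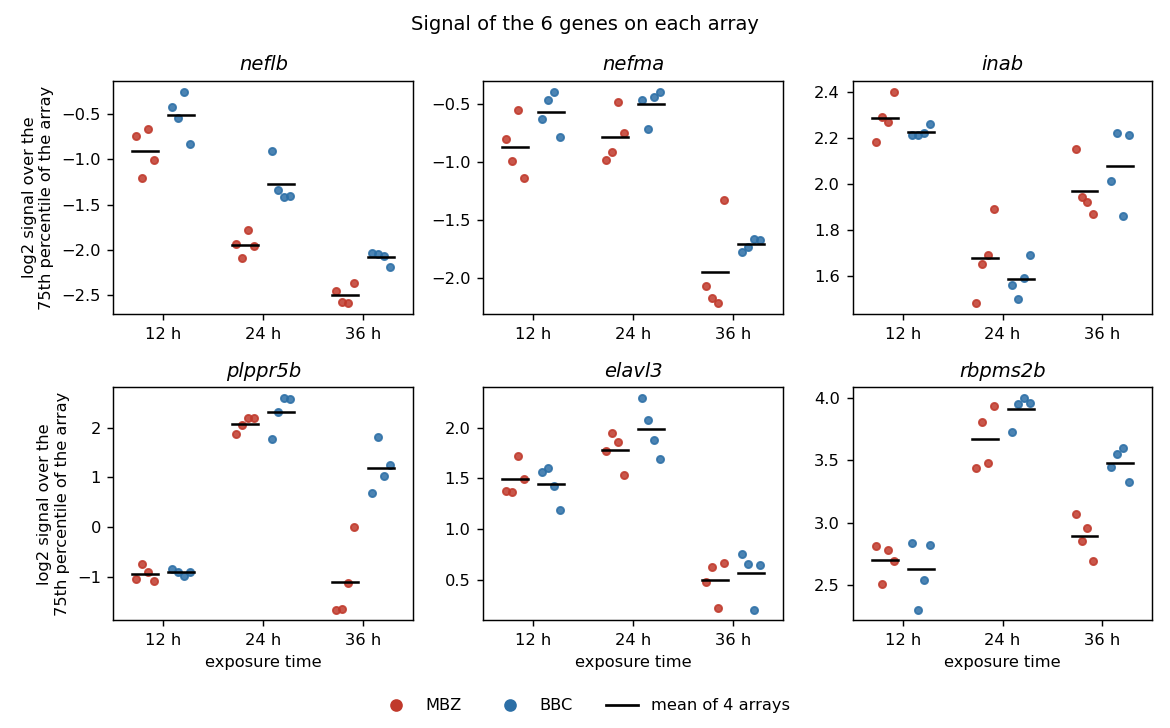
Log2 signal of the 6 genes on each of the 24 arrays, over the 75th percentile of its array, by exposure time, with MBZ arrays (red) left of BBC arrays (blue). Points are arrays, lines are means of 4, and each panel has its own vertical scale. The MBZ arrays of *rbpms2b* at 36 h, 2.69 to 3.07, lie below its BBC arrays, 3.33 to 3.60.

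*neflb* encodes the light neurofilament chain. Its level (probe A_15_P172651) was lower in MBZ eyes at each exposure time, which is what it was picked for. At 12 h it read -0.74, -1.21, -0.66 and -1.01 on MBZ arrays, against -0.42, -0.54, -0.25 and -0.83 on BBC arrays. These groups overlapped. At 24 h it read -1.93, -2.09, -1.78 and -1.96 on MBZ arrays, against -0.91, -1.34, -1.42 and -1.4 on BBC arrays. At 36 h it read -2.45, -2.57, -2.59 and -2.36 on MBZ arrays, against -2.03, -2.04, -2.07 and -2.19 on BBC arrays. The groups did not overlap at 24 or 36 h (as for 1.32% of all probes at 24 h and 2.84% at 36 h). The highest MBZ array and the lowest BBC array were nearest at 36 h. The differences were -0.40 at 12 h, -0.67 at 24 h and -0.41 at 36 h. Within the 6 slides they ran between -0.89 and -0.30, each below 0. The BBC array of replicate 1 at 24 h, at -0.91, stood apart from the other BBC arrays of that time.

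*nefma*, the medium neurofilament chain, was not picked for its fall and was not called at any exposure time. Probe A_15_P310216 read -0.80, -0.99, -0.55 and -1.14 on MBZ arrays and -0.63, -0.46, -0.39 and -0.78 on BBC arrays at 12 h. At 24 h it read -0.98, -0.91, -0.48 and -0.75 on MBZ arrays and -0.46, -0.71, -0.44 and -0.39 on BBC arrays. At 36 h it read -2.07, -2.17, -2.22 and -1.33 on MBZ arrays and -1.78, -1.73, -1.66 and -1.67 on BBC arrays. The groups overlapped at each time, at 36 h through MBZ replicate 4 alone. The differences were -0.30, -0.28 and -0.24 at 12, 24 and 36 h (SE 0.17 each), and the limma adjusted p was 0.9999, 0.9999 and 0.584. Their 95% intervals were -0.65 to 0.04, -0.62 to 0.06 and -0.58 to 0.11 in the same order. Without MBZ replicate 4 the difference at 36 h was -0.44, and it was then called (limma adjusted p = 0.0808). In that fit 1706 of 31504 probes were called lower at 36 h, against 770 of 31506 with all arrays. Within each of the 6 slides the MBZ mean was below the BBC mean, by -0.37 to -0.10. The mean of the 3 differences, a contrast added after seeing the data, was -0.27 (SE 0.10) and was not called (limma adjusted p = 0.231).

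*inab* encodes an internexin, a partner of the neurofilament chains. Probe A_15_P206601 read between 2.18 and 2.40 on MBZ arrays and between 2.21 and 2.26 on BBC arrays at 12 h. It read 1.48 to 1.89 on MBZ arrays and 1.5 to 1.69 on BBC arrays at 24 h. At 36 h it read 1.87 to 2.15 on MBZ arrays and 1.86 to 2.22 on BBC arrays. The groups overlapped at each time. The differences were 0.06, 0.09 and -0.11, with 95% intervals of -0.13 to 0.25, -0.10 to 0.29 and -0.30 to 0.09 at 12, 24 and 36 h. A difference beyond 0.30 in either direction thus lay outside these intervals, which are not adjusted over probes.

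*plppr5b* belongs to a family of membrane proteins related to phospholipid phosphatases, which in mammalian neurons shape filopodia and growing neurites. Its fall in MBZ eyes was the largest of the 6 genes, and it was picked for it. Probe A_15_P151216 read -1.05, -0.75, -0.90 and -1.09 on MBZ arrays at 12 h, against -0.85, -0.90, -0.98 and -0.91 on BBC arrays. At 24 h it read 1.88, 2.05, 2.19 and 2.19 on MBZ arrays, against 1.78, 2.32, 2.60 and 2.58 on BBC arrays. At 12 and 24 h the compounds overlapped. At 36 h it read -1.67, -1.66, -1.13 and -0.01 on MBZ arrays, against 0.69, 1.82, 1.03 and 1.24 on BBC arrays. All MBZ arrays were then below all BBC arrays (as for 2.84% of all probes), and MBZ replicate 4 was the nearest to them. The differences were -0.04, -0.24 and -2.31 at 12, 24 and 36 h, and the last was a 4.97-fold lower level. The 2 slides at 36 h gave -2.92 and -1.71. With any array left out the difference at 36 h lay between -2.68 and -2.1. In MBZ eyes the level was thus high at 24 h and at or below its 12 h level in 3 of 4 samples at 36 h, while in BBC eyes it stayed above the 12 h level in all 4 samples.

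*elavl3* encodes the RNA-binding protein HuC of newly formed neurons. Its brighter probe (A_15_P109471) read 1.37 to 1.72 on MBZ arrays and 1.19 to 1.6 on BBC arrays at 12 h. At 24 h it read 1.53 to 1.95 on MBZ arrays and 1.69 to 2.29 on BBC arrays. At 36 h it read 0.23 to 0.67 on MBZ arrays and 0.21 to 0.76 on BBC arrays. The compounds overlapped at each time, and the differences of 0.05, -0.21 and -0.07 (SE 0.14 each) were not called by limma, with an adjusted p of 0.903 or more. The 95% interval at 36 h ran from -0.37 to 0.23. The other probe (A_15_P100597) differed by 0.02, -0.20 and -0.09 and was not called either. The 2 probes moved together over the 24 arrays (Pearson's r = 0.898), and so did those of *rbpms2b* (r = 0.959).

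**Figure D2:**
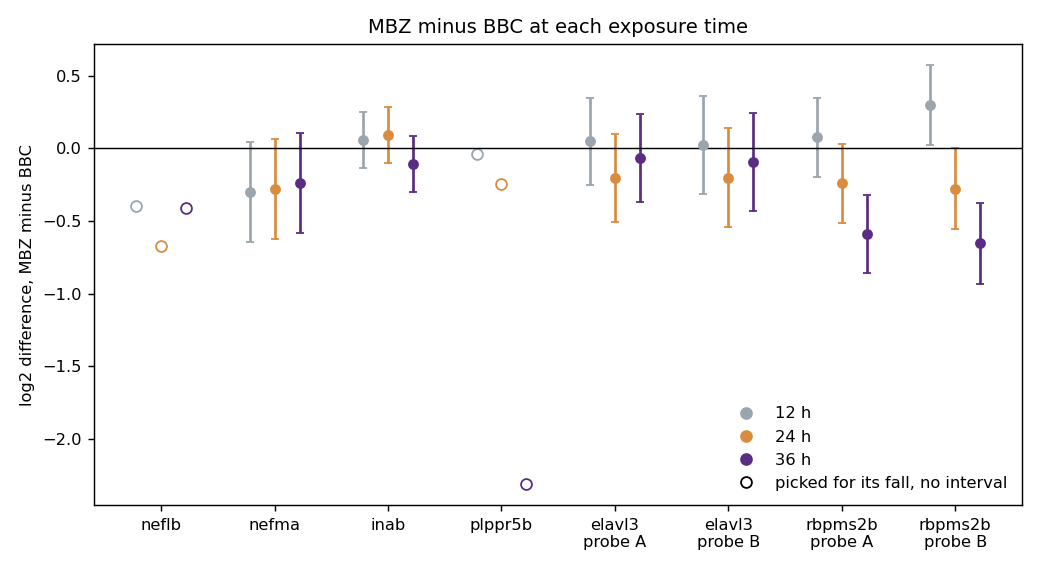
Log2 difference between MBZ and BBC eyes for each of the 8 probes at 12 h (grey), 24 h (orange) and 36 h (purple), with 95% intervals from limma that are not adjusted over probes. Probe A is the brighter probe of a gene, and open circles mark *neflb* and *plppr5b*, which were picked for their fall and carry no interval. The interval of *rbpms2b* probe A at 36 h runs from -0.86 to -0.32, while those of *nefma*, *inab* and *elavl3* reach 0 at each time.

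**Figure D3:**
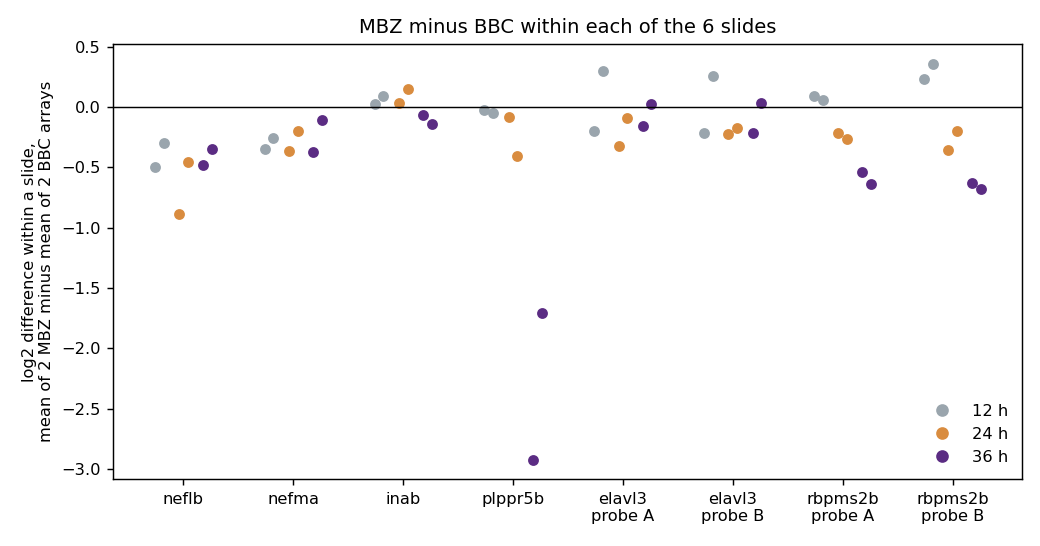
Log2 difference within each of the 6 slides, the mean of 2 MBZ arrays minus the mean of 2 BBC arrays, with 2 points for each exposure time. *neflb* and *plppr5b* were picked for their fall, so their points are a description. *nefma* lies below 0 on all 6 slides, as does the picked *neflb*. Both *rbpms2b* probes lie below 0 on the 4 slides of 24 and 36 h.

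The levels of all 6 genes also changed between exposure times in BBC eyes, where age and scan day cannot be told apart. These are the eyes whose values entered the choice of *neflb* and *plppr5b*, and between 12 and 36 h of exposure 77.9% of all probes were called (82.9% for 24 against 12 h and 71.1% for 36 against 24 h), so the 6 of 6 genes called there are no mark of the set. In the next sentences each step is a log2 difference in BBC eyes tested by limma. For *neflb* and *plppr5b*, whose BBC values entered their choice, the steps and calls are a description only. The median over all tested probes was 0.20 for 24 against 12 h and -0.13 for 36 against 24 h.

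*plppr5b* was 3.23 higher at 72 than at 60 hpf (SE 0.28) and 1.13 lower at 84 than at 72 hpf, on the log2 scale. It ended 2.1 above its level at 60 hpf. Over the 6 conditions its mean was highest at 24 h, 2.08 ± 0.15 after MBZ and 2.32 ± 0.38 after BBC (SD, n = 4 each), which overlapped. In BBC eyes at 36 h it was 1.20 ± 0.48, and the highest of these arrays (1.82) overlapped with the lowest BBC array at 24 h (1.78). Below BBC eyes at 36 h came MBZ eyes at 36 h (-1.12 ± 0.78) and, at 12 h, MBZ eyes (-0.95 ± 0.16) and BBC eyes (-0.91 ± 0.06), which overlapped with each other.

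*rbpms2b* had a similar course, with steps of 1.29 and -0.43 at its brighter probe and 1.72 and -0.46 at the dimmer one. The second step of the brighter probe was -0.26 with quantile normalization and -0.24 with the authors' normalized values, still called (adjusted p = 0.0677 and 0.0742). With the planned normexp, which broke down on 2 of the 4 BBC arrays at 24 h, its steps were 0.40 and 0.34 and neither was called (adjusted p = 0.42 and 0.511). The brighter probe averaged 3.67 ± 0.25 after MBZ and 3.91 ± 0.12 after BBC at 24 h, the 2 highest levels. BBC eyes at 36 h followed at 3.48 ± 0.12, overlapping with MBZ eyes at 24 h. MBZ eyes at 36 h (2.89 ± 0.16) came next, and MBZ and BBC eyes at 12 h (2.70 ± 0.14 and 2.63 ± 0.26) were lowest, overlapping with them. Over the 24 arrays *plppr5b* and the brighter *rbpms2b* probe correlated with r = 0.896. Within conditions the correlation was -0.08, so the likeness was one of the condition means.

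*neflb* went the other way, with steps of -0.76 and -0.81 in BBC eyes, and it was 1.57 lower at 84 than at 60 hpf (SE 0.13). Its means were -0.91 ± 0.26 after MBZ and -0.51 ± 0.24 after BBC at 12 h, -1.94 ± 0.13 after MBZ and -1.27 ± 0.24 after BBC at 24 h, and -2.49 ± 0.11 after MBZ and -2.08 ± 0.08 after BBC at 36 h. Ordered by level, neighbouring conditions overlapped except for MBZ against BBC at 24 h and at 36 h. *nefma* was level at first (0.07, limma adjusted p = 0.732) and then 1.21 lower at 84 than at 72 hpf. Its 4 levels at 12 and 24 h, with means between -0.87 and -0.50, overlapped, and its levels at 36 h were lowest, -1.95 ± 0.42 after MBZ and -1.71 ± 0.05 after BBC.

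*elavl3* was 1.41 lower at 84 than at 72 hpf at its brighter probe and 0.81 lower at the other. For 72 against 60 hpf the brighter probe rose by 0.54, but the other did not change beyond its error (-0.02, limma adjusted p = 0.930), so the 2 probes disagreed on this step. *inab* was 0.64 lower at 72 than at 60 hpf and 0.49 higher at 84 than at 72 hpf. Its difference between 84 and 60 hpf, -0.15, was called (limma adjusted p = 0.154) but not with quantile normalization (adjusted p = 0.752).

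Beyond the 6 genes, some other ganglion cell genes were also lower in MBZ eyes at 36 h. The list of ganglion cell transcription factors and markers was chosen with earlier results of these data known. It has 33 names, of which 22 had a probe and 21 were tested. One of them, *chrnb3b*, passed the filter on dim probes only through the BBC arrays at 36 h and is left out of the counts of that time. Of the other 20, *rbpms2b* among them, 5 were called lower and 1 higher at 36 h. Their median was -0.18, where all tested probes had a median of -0.01. At 12 and 24 h 0 of the 21 were called by limma, where 0.321% of all probes were called at each time. Of the 19 that are also not in the set above, 4 were called lower, with a median of -0.135. Over all probes, 2.44% were called lower and 3.17% higher at 36 h.

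*rbpms2a*, the close relative of *rbpms2b*, read 3.03, 3.07, 2.13 and 2.23 on MBZ arrays at 36 h, against 3.80, 3.93, 3.26 and 3.27 on BBC arrays. All MBZ arrays were below all BBC arrays (as for 2.84% of all probes), though the 2 slides differed in level in both compounds. The difference was -0.95 (SE 0.23, limma adjusted p = 0.0493). *pou4f2*, a POU-domain factor that mouse ganglion cells need for their axons and survival, read -0.80, -1.01, -1.24 and -1.19 on MBZ arrays and -0.48, -0.23, -0.70 and -0.49 on BBC arrays. These did not overlap, and the difference was -0.58 (limma adjusted p = 0.0468). *isl2a*, a LIM homeobox gene, read 1.68, 1.61, 1.31 and 1.31 on MBZ arrays and 2.06, 2.05, 1.75 and 1.92 on BBC arrays, a difference of -0.47 (limma adjusted p = 0.0422). *sncga*, a gamma-synuclein, was lower by -0.51 (limma adjusted p = 0.0839), with 3 MBZ arrays, because the spot of MBZ replicate 1 was uneven and left out. Its call was lost without BBC replicate 4 or without MBZ replicate 2 or 3 of that time, with an adjusted p up to 0.242.

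*chrnb3b*, a nicotinic acetylcholine receptor subunit gene, was not well above background on any MBZ array at 36 h but was on all 4 BBC arrays. The BBC arrays read -4.50, -4.95, -4.21 and -5.22, far below the 75th percentile, and the lowest signal called well above background on each array stands in for a dim MBZ array. By this approximate bound its level was 4.53-fold lower in MBZ eyes. The bound is not strict, because BBC replicate 3 at 24 h read -5.51 at this probe and was not well above background. Among the other alternatives the difference was as small as -0.47. The probe was well above background on 1 other array of the 24 and so was tested only because of its level in the BBC eyes of that time, and no test is given for it. The T-box gene *eomesa* was the 1 gene called higher (0.34, limma adjusted p = 0.151), with overlap between the compounds. Its call was lost without any 1 of 6 of the 8 arrays of that time, all but BBC replicate 3 and MBZ replicate 4. It was also lost in 7 of 13 other alternatives, in which the difference was as low as 0.145.

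The other 14 genes of the list were not called. *pou4f3* differed by -0.78 (SE 0.34), *sncgb* by -0.40 and *isl1a* by -0.31, and the 4 *sox4* and *sox11* genes differed by 0.01 to 0.16. *atoh7*, the gene that starts ganglion cell formation, differed by -0.12 (SE 0.16). With a fit of only the 8 arrays of 36 h, *rbpms2a*, *pou4f2*, *isl2a* and *sncga* were no longer called, with an adjusted p of 0.31 or more.

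**Figure D4:**
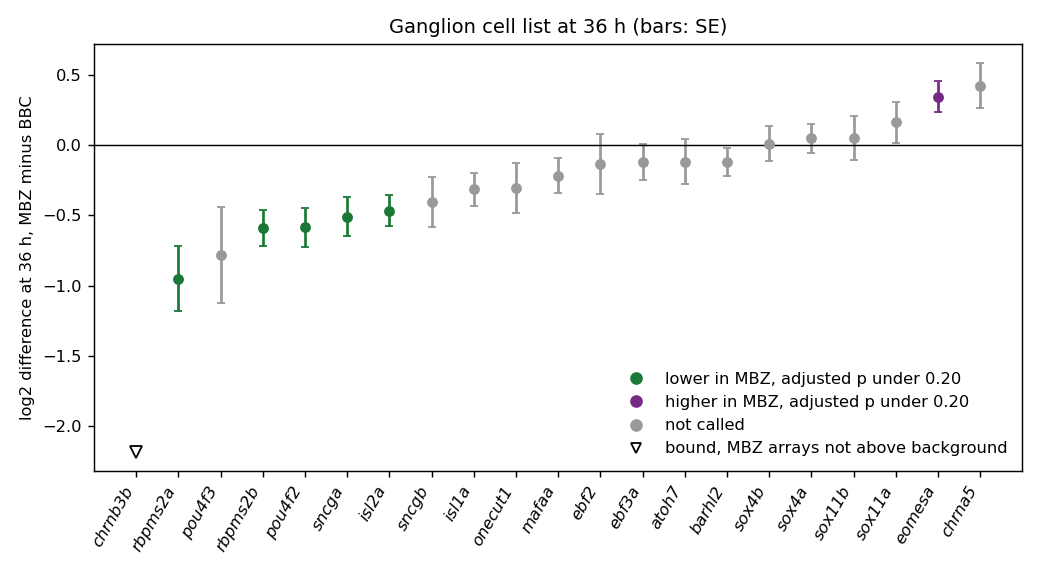
Log2 difference between MBZ and BBC eyes at 36 h for the 21 tested genes of the ganglion cell list, ordered by size, with SE bars. Green marks genes called lower, purple genes called higher and grey those not called. The open triangle is the approximate bound of *chrnb3b* at -2.18, which carries no test, and *rbpms2a* is lowest of the called genes at -0.95.

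Medians of the axon and general neuronal lists ran from -0.24 to 0.28 at 36 h. The lowest was that of the 3 tested filament genes. The highest was that of 2 axonal microtubule-associated genes, the only ones of 27 names in that list with a matched probe. Of the filament genes, *neflb* was picked for its fall, so the place of this list is a description. *nefma* and *inab*, which were not picked, differed by -0.24 and -0.11. Over all probes, 2.44% were called lower. The growth cone and axon growth list had 16 tested genes, *plppr5b* among them, with a median of 0.03. Of the other 15, *nrn1b*, which encodes neuritin, was called lower and no gene was called higher. It read -4.94, -4.45, -4.14 and -4.02 on MBZ arrays and -3.39, -3.17, -2.87 and -3.74 on BBC arrays, low on every array. The compounds did not overlap, as for 2.84% of all probes. The difference was -1.09 (SE 0.30, limma adjusted p = 0.0863). It was -0.51 with normexp, both as planned and with limited local backgrounds, a setting added after seeing the data. Its call was lost without BBC replicate 2 of that time (adjusted p = 0.205).

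Of 24 tested guidance genes of the eye, 18 were below 0, with a median of -0.12. In this list 2 genes were called lower, where 2.44% of all probes were. *nrp2b*, a semaphorin receptor gene, read 3.63, 3.71, 3.64 and 3.69 on MBZ arrays and 3.97, 4.02, 3.71 and 4.01 on BBC arrays (-0.26, limma adjusted p = 0.10). *efna5b*, which encodes an ephrin that steers ganglion cell axons in the tectum, differed by -0.43 (limma adjusted p = 0.161). Each of these calls was lost without any 1 of BBC replicates 1, 2 and 4 and MBZ replicate 3, and that of *efna5b* also without MBZ replicate 1 or 2, with an adjusted p up to 0.312. Among the other alternatives, the call of *nrp2b* was lost in 6 of 13 and that of *efna5b* in 6 of 12, and the difference of *efna5b* was as small as -0.089. Of 10 tested axon adhesion genes and the 2 tested of 27 axonal microtubule-associated genes, 0 were called by limma.

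Among 30 tested pan-neuronal genes, with a median of 0.01, 2 were called higher and 0 lower. *uchl1*, a ubiquitin hydrolase gene abundant in neurons, read 1.47, 1.47, 1.75 and 1.4 on MBZ arrays and 1.1, 1.11, 1.28 and 1.12 on BBC arrays (0.37, limma adjusted p = 0.0323). *scg2b*, a secretogranin gene, read 3.61, 3.57, 3.66 and 3.59 on MBZ arrays and 3.17, 3.08, 3.24 and 3.17 on BBC arrays (0.44, limma adjusted p = 0.0199). The compounds did not overlap for either gene, as for 2.78% of all probes, and 3.17% were called higher. The rank product ended both calls (FDR of 0.66 and 0.464), as did normexp with limited local backgrounds (limma adjusted p = 0.568 and 0.216), and that of *uchl1* was lost in the fit of the 8 arrays (adjusted p = 0.374). The axon, ganglion cell and neuron genes outside the set were 99 without *chrnb3b*. Of these, 3 were called higher and 7 lower at 36 h, with a median of -0.01, where 2.44% of all probes were called lower. Of all 100 genes with *chrnb3b*, 0 were called at 12 or 24 h by limma, with medians of 0.02 and -0.04. Over all probes 0.321% were called at each of these times.

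Markers of other cells, of the eye and of tissues outside it, were counted at 36 h as well, and some lists held called genes. Over all probes at that time, 2.44% were called lower, 3.17% were called higher and 2.84% had all MBZ arrays below all BBC arrays. Of 16 lens genes, 7 were called lower, all 16 were below 0, and the median was -0.64. Their summed signal, relative to the 75th percentile, was 440 to 579 on MBZ arrays and 721 to 977 on BBC arrays. Of 24 genes of brain, hypothalamus and pituitary, 6 were called higher, with a median of 0.23 and a summed signal of 33.3 to 47.8 on MBZ arrays and 29.2 to 34.2 on BBC arrays. The 20 photoreceptor genes were all below 0, with a median of -0.16, and 0 were called by limma. Of 15 amacrine and horizontal cell genes 0 were called, and of 10 Müller glia genes 1 was called higher. Of 8 bipolar cell genes 1 was called higher, while 3 had all MBZ arrays below all BBC arrays. Their median was -0.12 and their summed signal was 39.8 to 49.3 on MBZ arrays and 51.3 to 55.3 on BBC arrays, without overlap. The 10 peripheral sensory neuron genes, of which 0 were called by limma, had a median of 0.06 but a summed signal of 12.8 to 14.7 on MBZ arrays and 15.4 to 16.2 on BBC arrays. Of 18 skeletal muscle genes 17 were below 0 and 0 were called, with a median of -0.28 and a summed signal of 87.2 to 161 on MBZ arrays and 135 to 219 on BBC arrays. The summed signal of the ganglion cell list itself was 171 to 230 on MBZ arrays and 177 to 226 on BBC arrays, which overlapped. At 12 h the 18 skeletal muscle genes had a median of 0.79, with a summed signal of 22.4 to 58.5 on MBZ arrays and 9.96 to 30.9 on BBC arrays. The part of these cell types in the differences above was not tested.

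**Figure D5:**
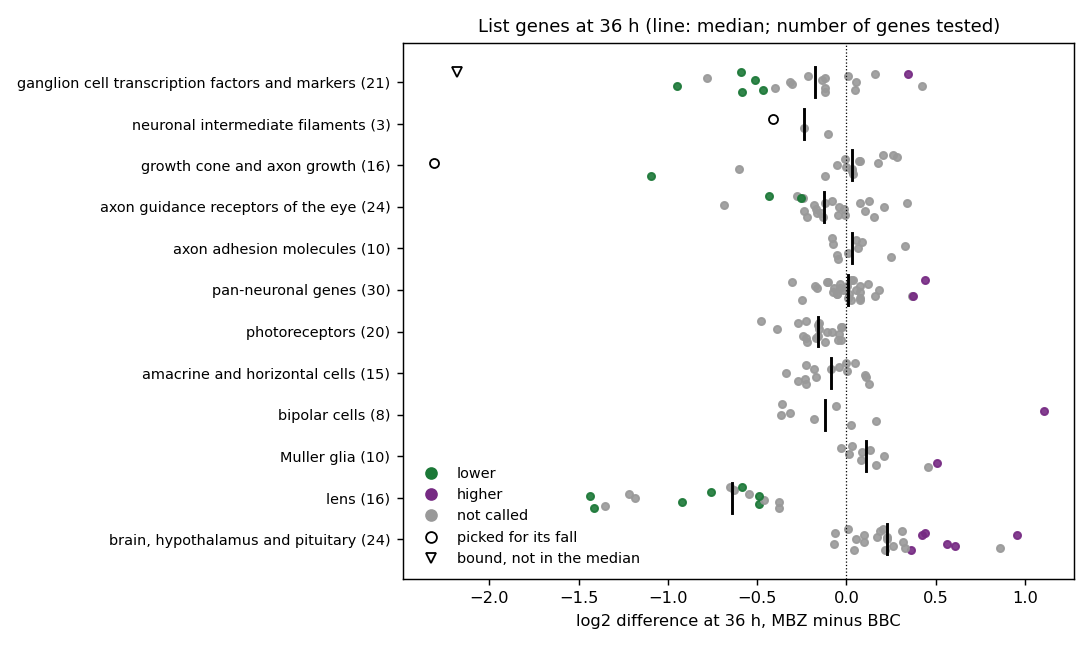
Log2 difference between MBZ and BBC eyes at 36 h for each tested gene of 12 lists, with the number of genes in brackets and the list median as a line. Open circles mark *neflb* and *plppr5b*, and the open triangle marks the approximate bound of *chrnb3b*, which is not in the median. The medians are -0.18 for ganglion cell genes (-0.135 without *rbpms2b*), 0.01 for pan-neuronal genes and -0.64 for lens genes.

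The genes whose course over the 24 arrays was most like that of a member were found among 9738 named genes by Pearson's r, as a description. The arrays share conditions, slides and scan days. For *plppr5b* these were *iglon5* (r = 0.962), a neuronal adhesion molecule of the immunoglobulin superfamily, and then *btr12*, *dnal1*, *asb11* and *dnajb2*, with r between 0.918 and 0.931. For *rbpms2b* the first was *six6b* (r = 0.956), a homeobox gene of the developing retina, followed by *faslg*, *vps4a*, *kcnj1a.6* and *asb11* (0.922 to 0.932). For *neflb* they were *rrbp1b* (r = 0.933), *fam168a*, *fam171a1*, *pim1* and *tead3b* (0.924 to 0.926). *asb11* stood among the 5 for both *plppr5b* and *rbpms2b*.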

How the data were processed

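RNA of 24 pooled eye samples was measured on Agilent arrays of 1 colour, and samples were grouped by their labels. The authors used Agilent Feature Extraction (version 8.0 in the submitters' notes, 10.1.1.1 in the file headers) and deposited raw intensities of each spot: its background-corrected and median pixel brightness, its local background and its flags. The authors also deposited log2 values normalized between arrays, used here as an alternative.

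The background-corrected intensity was scaled by its 75th percentile over the probe spots of the array and its log2 was taken. Repeat spots of a probe were averaged, and uneven spots were left out (1345 tested probes lost at least 1). Of 43603 probes, 31507 were tested (31506 at 36 h): all 4 arrays of some condition had to be positive and well above background. The brightest probe represented a gene. Names came through RefSeq accessions from a table of assembly GRCz12tu (15163 probes).

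One fit of limma 3.58.1 in R 4.3.3 held all arrays and the 6 conditions (18 residual degrees of freedom). It used Benjamini-Hochberg adjustment over all tested probes and calls at 0.20. The study's methods applied an FDR of 0.20 to a rank product and not to limma. The code was tested on simulated data. The members and lists were chosen with earlier results of these data known. Up to 3 called genes of each axon, ganglion cell and neuron list were named by size at each time. Further genes of the ganglion cell list were named after their values were seen.

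Alternatives were quantile normalization, normexp on the median pixel signal (offset 50), the authors' normalized values, stricter and no filters on dim probes, blocks for replicate number and slide, a fit of the compared arrays, a rank product (100 permutations), an adjusted p under 0.05, the mean over probes and leaving out each array. Samples of equal replicate number deviated together at 24 h (r of 0.15 to 0.43 over 4 pairs), but not in every pair at 12 h (0.03 to 0.13) or 36 h (-0.02 to 0.37). The labels do not say what the number marks, but samples of equal number and exposure time shared a slide.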

Additional observations from a re-analysis of the deposited data

Results flagged for a closer look

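At the dimmer *rbpms2b* probe, the difference between MBZ and BBC eyes changed between 12 and 36 h, by -0.95 on the log2 scale in the test of the 2 effects (limma adjusted p = 0.0526). The call was lost with the planned normexp (adjusted p = 0.9999) and at a threshold of 0.05. Its MBZ arrays read 0.11, -0.29, -0.06 and 0.12 and its BBC arrays -0.12, -0.54, -0.48 and -0.18 at 12 h, so the compounds overlapped there. At 36 h all MBZ arrays were below all BBC arrays, as for 2.84% of all probes. A sample far from the other 3 of its group was found in 2 of 48 groups of 4 arrays, where chance gives about 1 in 20. *neflb* was at -0.91 in BBC replicate 1 at 24 h, with the other BBC arrays of that time between -1.42 and -1.34. Without that array the difference of *neflb* at 24 h was -0.55. *nefma* was at -1.33 in MBZ replicate 4 at 36 h, with the other MBZ arrays between -2.22 and -2.07. In that sample *plppr5b* was also the highest of the MBZ arrays at 36 h, at -0.01.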

How the results depend on the processing

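The counts by limma of genes lower in MBZ eyes at 12 and 24 h (0 each) and changed from 60 to 84 hpf in BBC eyes (6, with 4 to 6 elsewhere) kept within 1.5 times under all alternatives. The 6 include the picked *neflb* and *plppr5b*. At 36 h the count of 1 gene became 0 with the planned normexp correction and 0 with the rank product, and it ran from 1 to 2 with single arrays left out, 2 without MBZ replicate 4 of that time. Without that array 1706 of all probes were called lower at 36 h, against 770 with all arrays. The planned correction broke down on 5 arrays, where 6 to 32 spots had a local background over 100 units, up to 298131. With those backgrounds replaced by the median of the array, a setting chosen after seeing the data, *rbpms2b* was called at both probes. The count of genes whose effect differed between 12 and 36 h, 0 by brightest probes, was 1 with quantile normalization, the authors' normalized values and the mean over probes, and 0 to 1 with arrays left out, 1 without MBZ replicate 1 of 24 h.

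The alternatives of the ganglion cell list were counted with *chrnb3b*, which passed the filter only through the BBC arrays at 36 h. The count of 5 without it was not repeated under them. So counted, 6 genes were lower at 36 h, but 0 with the planned normexp and 2 by the rank product. The 2 by the rank product held *chrnb3b*. The fit of the compared arrays gave 2, the set gene *rbpms2b* and *chrnb3b*, but not *rbpms2a*, *pou4f2*, *isl2a* or *sncga*. With arrays left out the count was 5 to 8. It was 10 when replicate numbers were a block fitted separately for the exposure times. At 36 h samples of equal number did not deviate together in every pair (r of -0.02 to 0.37). At that time the block within times called 1897 probes lower and 1914 higher, against 770 and 1000 without it. It and the block across the series changed none of the counts of set genes. The other axon and neuron lists had 3 genes lower, but 0, 0, 1 and 0 with the planned normexp, the compared arrays, the rank product and an adjusted p under 0.05, 1 with limited local backgrounds, and 0 to 5 with arrays left out. Single arrays that moved it were BBC replicate 2 (0), BBC replicates 1 and 4 and MBZ replicate 3 (1 each) and BBC replicate 3 (5), all of 36 h. Their 2 higher genes became 0, 1, 0 and 1 with the planned normexp, the compared arrays, the rank product and limited local backgrounds, and 2 to 3 with arrays left out. Over all probes at 36 h, 8 were lower and 7 higher with the planned normexp, 494 and 646 with limited local backgrounds, 46 and 95 in the fit of the compared arrays, and 436 and 346 by the rank product.

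With the planned normexp the BBC steps of *neflb* (-0.14) and the brighter *elavl3* probe (-0.057) for 24 against 12 h were no longer called. Those of *plppr5b* (-0.27) and the dimmer *rbpms2b* probe (-0.18) for 36 against 24 h were also lost. The step of the other *elavl3* probe for 36 against 24 h, -0.39, was still called (limma adjusted p = 0.151). Differences near 0 turned in sign. The dimmer *elavl3* probe at 12 h was -0.076 with the planned normexp, -0.049 with limited local backgrounds and -0.062 to 0.080 with arrays left out. At 36 h it was -0.25 to 0.034. The brighter probe lay at -0.037 to 0.099 after 12 h and at -0.19 to 0.023 after 36 h. The brighter *rbpms2b* probe lay at -0.034 to 0.15 after 12 h and was 0.14 after 24 h with the planned normexp. With 4 arrays a condition, the median SE of a difference was 0.14 over all probes.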
